A study of Mus musculus with 40 samples.

Results

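Colonic mucosa of mice that carried only the Escherichia coli strain CEC for 21 days was compared with colonic mucosa of germ-free mice, which carry no microbes. Each group held 10 samples out of the 40 of the series, whose other groups were mono-associated with Escherichia coli Nissle or conventional. Expression was measured by real-time PCR with TaqMan assays, each a primer pair with a fluorescent probe for 1 transcript, in the nanolitre wells of a custom OpenArray plate. The labels state neither strain, age nor sex of the mice, and of the bacterial strain CEC they state only the name. The design text says RNA of the mice was pooled, so whether a sample is 1 mouse is not settled. All p-values below measure only the spread between samples, which may be technical.

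The comparison covers every assay with a threshold cycle (Ct, the PCR cycle at which the signal crosses a set level) in 5 or more samples of each group, which holds for 214 of the 224 assays. A Ct of exactly 40 was read as an undetermined well and left missing. Some wells had been filled in before deposit with a mean of their group. With these 83 values of the 20 samples also left missing, 213 assays were tested. The 10 assays outside the rule include 5 that were undetermined in all 20 samples. Relative expression on the log2 scale was obtained as the median Ct of a sample over the 203 assays without a 40 in any sample, from which the Ct of the assay was subtracted, so 1 unit stands for about a doubling of transcript and a higher value for more transcript.

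The colonic mucosa is a single layer of epithelium, with absorptive, mucus-secreting and hormone-secreting cells, over a connective tissue rich in immune cells. In germ-free animals parts of its defence programme are known to be less active, and microbes switch some of them on through receptors for bacterial products. Mono-association, the colonisation of a germ-free animal with a single known strain, isolates the response to that strain from the response to a whole community. The assays are identified by TaqMan IDs, which the files do not pair with genes, so they are described by ID and no gene is named. For the same reason the labelled tissue could not be checked against marker genes, and no sequence is printed. In whole mucosa, fewer cells of a type and less RNA per cell cannot be told apart.

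After CEC, 18 of 213 assays changed (8.45%, limma, Benjamini-Hochberg adjusted p under 0.05). Of these, 10 rose (4.69%) and 8 fell (3.76%). The rises ran from 1.76-fold to 164-fold with a median of 2.50-fold, and the falls from 1.63-fold to 27.5-fold with a median of 2.25-fold. Only 1 rise went beyond the largest fall, and the next largest rise was 8.29-fold. Changes beyond 2-fold passed the test for 7 assays that rose and 6 that fell. Over all 213 assays the median log2 difference was 0.05, with 115 assays above 0 and 98 below it.

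The split of rises and falls varied somewhat with the scale. With the mean Ct in place of the median, 9 rose and 11 fell. The median over assays measured in all samples gave 9 rises and 10 falls, and the 10 most stable assays gave 11 and 13. Rises thus stayed at 9 to 11 with every normalizer. With no normalization 4 rose and 8 fell. Leaving out the normalization moved the median difference of all assays to -0.20.

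The response was led by Mm00655850_m1, the assay with the largest rise. In the germ-free samples its log2 relative expression ran from -14.89 to -2.55 with a median of -4.41, and after CEC it ran from -2.93 to 9.13 with a median of 1.32. Of the 10 CEC samples 9 lay above the highest germ-free sample. CEC replicate 5, the lowest, lay within the germ-free range. The group means were 1.62 ± 3.59 after CEC and -5.73 ± 3.86 in germ-free mucosa (SD, n = 10 each), a rise of 7.35 log2 units (164-fold, standard error 1.30, limma, adjusted p = 7.78e-05). The germ-free samples themselves spanned the widest range that either group showed for the 4 named assays.

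Single samples set part of the size of this rise. It was 80.9-fold without germ-free replicate 31, the lowest sample, and 91.8-fold without CEC replicate 6, the highest. Germ-free replicate 31 had a Ct of 36.67 for this assay, the highest below 40 in the series. Weighting the samples by quality gave 61.2-fold, and treating wells above a Ct of 30 as undetermined gave 56.2-fold. The rise passed in each of these fits.

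Mm00470560_m1, the assay with the second largest rise, was the one assay of the 213 whose groups did not overlap (0.469%). Its germ-free samples lay close together, between -4.75 and -3.13 with a median of -3.77, and its CEC samples between -2.09 and 4.91 with a median of -1.26. The means were -0.77 ± 2.03 after CEC and -3.82 ± 0.49 in germ-free mucosa (SD, n = 10 each), a rise of 3.05 log2 units (8.29-fold, standard error 0.55, limma, adjusted p = 9.09e-05). Most of the spread after CEC came from replicate 6, at 4.91, since the other 9 CEC samples ended at -0.77. Without replicate 6 the rise was 5.35-fold (limma, adjusted p = 7.33e-06), and with sample quality weights it was 5.25-fold.

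Mm00445845_m1 showed the largest fall. It ran from -0.98 to 3.89 with a median of 2.34 in germ-free samples and from -4.73 to -0.25 with a median of -2.57 after CEC. All 10 CEC samples lay below the germ-free mean, and 8 lay below every germ-free sample. The groups overlapped through CEC replicates 6 and 10, at -0.58 and -0.25, and germ-free replicate 20, at -0.98, while the next germ-free sample stood at 1.67. The means were -2.47 ± 1.30 and 2.31 ± 1.36 (SD, n = 10 each), so the level fell by 4.78 log2 units with a standard error of 0.83 (27.5-fold, limma, adjusted p = 6.57e-05).

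Mm00472168_m1 showed the second largest fall. Germ-free samples lay between 1.63 and 4.28 with a median of 2.79, and CEC samples between -1.84 and 2.25 with a median of 0.44. Of the CEC samples 9 lay below every germ-free sample, and replicate 10, at 2.25, lay among them. The mean fell by 2.41 log2 units with a standard error of 0.41, from 2.83 ± 0.71 to 0.41 ± 1.09 (SD, n = 10 each; 5.33-fold, limma, adjusted p = 6.57e-05).

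**Figure D1:**
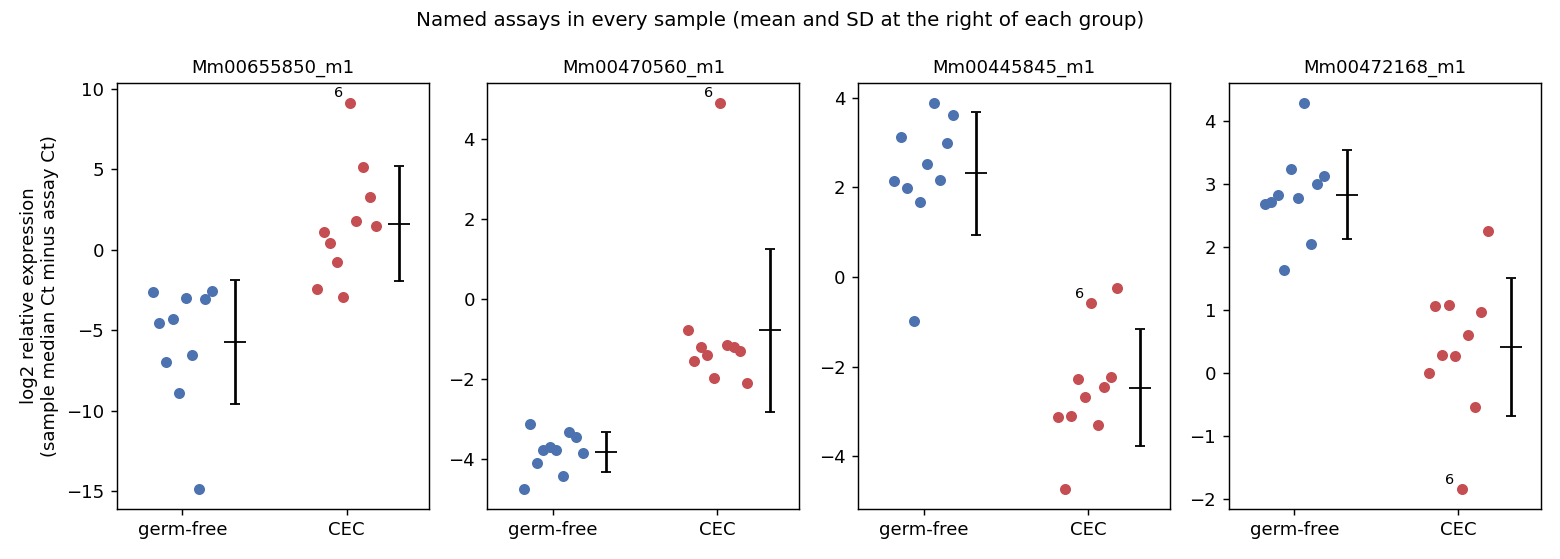
Log2 relative expression (sample median Ct minus assay Ct) of the 4 named assays in each of 10 germ-free (blue) and 10 CEC (red) samples, with mean and SD beside each group and CEC replicate 6 marked. For Mm00470560_m1 every CEC sample lies above every germ-free sample, and for the other 3 assays 8 or 9 of the 10 CEC samples lie outside the germ-free range.

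The levels of the same 4 assays in the other groups are given as a description, with no test. Mm00655850_m1 ran from -4.17 to 2.02 with a median of -0.09 after Nissle and from -8.36 to -3.63 with a median of -6.16 in the 9 conventional samples that were measured. Mm00470560_m1 ran from -2.92 to -1.56 with a median of -2.15 after Nissle and from -3.17 to 1.77 with a median of 0.44 in conventional samples. Its median was thus lowest in germ-free and highest in conventional mucosa, while that of Mm00655850_m1 was lowest in conventional mucosa. Mm00445845_m1 spanned -4.53 to 3.18 after Nissle, with a median of -3.66, and -1.06 to 4.21 in conventional samples, with a median of 2.99. Mm00472168_m1 ran from -0.02 to 2.29 after Nissle, and from 2.40 to 6.44 in conventional samples.

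The other 8 assays that rose did so by 1.76-fold to 7.05-fold, with a median of 2.35-fold and standard errors of 0.16 to 0.48 log2 units. Their adjusted p ran from 6.57e-05 to 0.0482 (limma), and 5 of them rose by more than 2-fold. Between 2 and 9 of the CEC samples lay outside the germ-free range of each. The other 6 assays that fell did so by 1.63-fold to 3.31-fold, with a median of 2.17-fold, standard errors of 0.17 to 0.55 and adjusted p of 0.00403 to 0.0431 (limma). In each of them 4 to 8 CEC samples lay outside the germ-free range, counted on either side. In the largest of these 6 falls the highest CEC sample, at 3.36, lay above the highest germ-free sample, at 2.31. Group ranges overlapped for all 14.

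**Figure D2:**
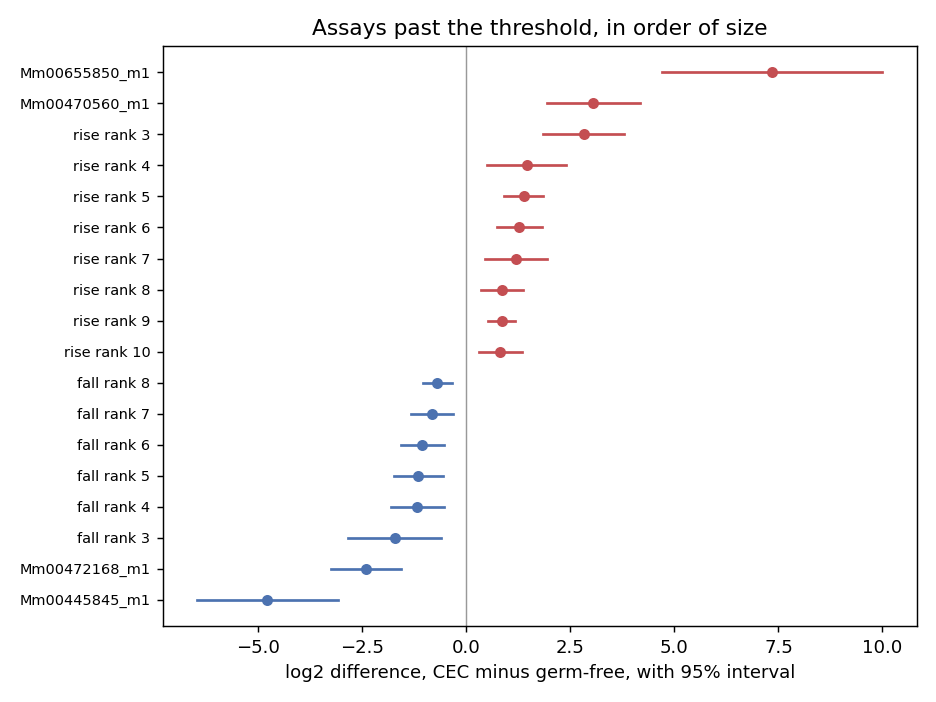
Log2 difference (CEC minus germ-free) with its 95% interval for the 18 assays past the threshold, ordered from the largest rise to the largest fall, with red for rises and blue for falls. Mm00655850_m1, at 7.35, and Mm00445845_m1, at -4.78, stand apart from the others, which lie between -2.41 and 3.05.

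Rises and falls started from different levels. The 10 assays that rose had germ-free means from -7.13 to 2.33 with a median of -4.24, against a median of -0.16 over all 213 assays, and 3 of them had a germ-free mean above 0. The 8 that fell had germ-free means from -3.26 to 7.85 with a median of 0.97, and 7 had a mean above 0. Of the 71 assays with the lowest mean level, 7 rose and 1 fell. In the middle 71, 1 rose and 4 fell, and in the highest 71, 2 rose and 3 fell. Precision followed level too, since the median standard error of a difference was 0.44 in the lowest, 0.25 in the middle and 0.23 log2 units in the highest 71 assays. The germ-free mean also enters the difference that sorted rises from falls, so level and direction are not independent here. The order of assays by level also depends on how efficiently each assay amplifies, which was not measured, and no test of this pattern was made.

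**Figure D3:**
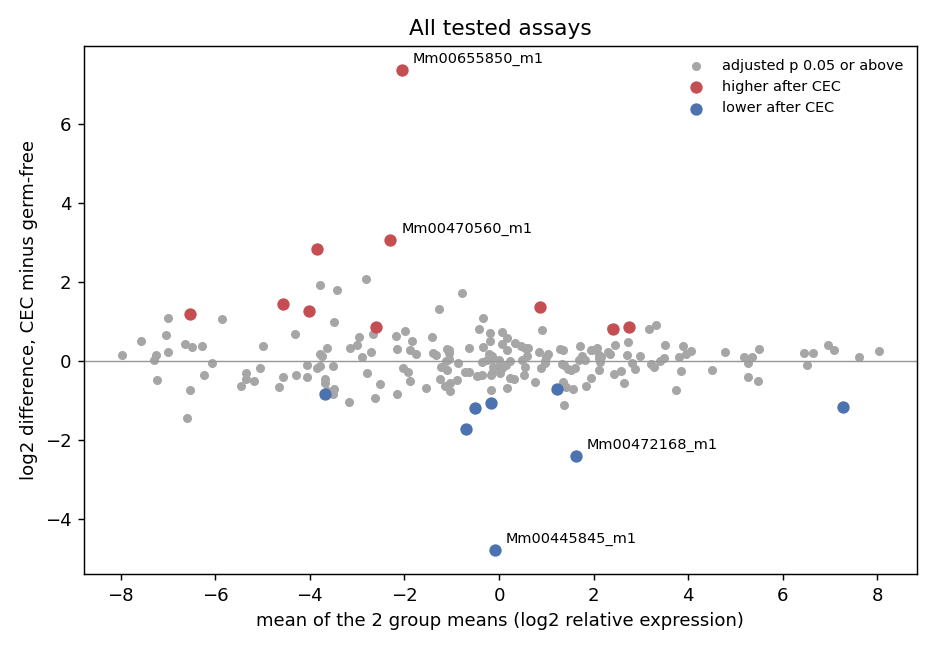
Log2 difference (CEC minus germ-free) against the mean of both group means for all 213 tested assays, with assays past the threshold in red (higher after CEC) and blue (lower). Of the 10 rises 7 are among the 71 assays of lowest mean level, which end at -1.76, and of the 8 falls 1 does.

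By convention the suffix of a TaqMan ID tells where the probe sits, with m for a probe across an exon junction. The letter s marks an assay within a single exon, which can also detect genomic DNA, and g another kind that may do so. All 18 changed assays were m1 assays, of which 178 were tested, so 10.1% of them passed against 8.45% of all 213 assays. The 18 s1, 15 g1 and 2 gH assays are few, none of them passed (limma), and the difference between the classes was not tested. Median absolute differences were 0.34 log2 units for m1, 0.35 for s1 and 0.27 for g1 assays.

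For the other 195 assays the test found no change past the threshold, and their intervals show what was within reach. The 95% interval of the difference lay within 2-fold in either direction for 116 of them and within 4-fold for 179, so for 16 assays a change beyond 4-fold could not be told from none. Another 18 assays had an adjusted p between 0.05 and 0.1 (limma), 10 of them higher and 8 lower after CEC. At an unadjusted p under 0.05 there were 47 assays in all.

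No difference in detection passed the test. Of the 20 assays with an undetermined well in these samples, 15 were detected in some of them: 5 in more CEC samples, 9 in more germ-free samples and 1 equally often. After adjustment 0 passed, and none had an unadjusted p under 0.05 (Fisher's exact test, two-sided). The widest gap was Mm00475162_m1, which was singled out after the values were seen and detected in 7 of 10 CEC and 3 of 10 germ-free samples (Fisher's exact test, two-sided, p = 0.179, adjusted p = 1). Undetermined wells numbered 111 in the CEC and 109 in the germ-free samples.

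The filter of 5 measured samples left 2 assays just inside it. Mm01288386_m1 was measured in 5 samples of each group, from -8.82 to -6.13 after CEC and from -9.06 to -7.31 in germ-free mucosa. Mm00656925_m1 was measured in 5 CEC samples, from -7.90 to -5.44, and 6 germ-free samples, from -7.91 to -6.06. Just outside it, Mm00440502_m1 ran from -4.74 to -3.12 in 4 CEC samples and from -7.34 to -4.64 in 7 germ-free samples, its other values being filled in. Mm00441263_m1 had 4 CEC values from -9.08 to -1.86 and 2 germ-free values, and Mm00434204_m1 had 2 CEC values and 4 germ-free values from -9.01 to -8.23.

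In most assays the CEC samples had the larger spread. The SD was larger after CEC in 158 of 213 assays, with a median SD of 0.70 against 0.48 log2 units, and in 132 without CEC replicate 6. In CEC replicates 6, 8 and 9, respectively 87, 62 and 68 of the 170 assays measured in all 20 samples lay outside the range of the other CEC samples, against 12 to 29 assays in the other 7. Among germ-free samples, compared in the same way, the number ran from 19 to 62 and was highest in replicate 33. CEC replicate 6 had the highest CEC value of Mm00655850_m1 and Mm00470560_m1 and the lowest of Mm00472168_m1. The sample median Ct, which reflects template amount and the expression of the panel together, was 22.72 ± 0.84 cycles after CEC and 22.47 ± 0.31 in germ-free samples (SD, n = 10 each), a difference of 0.26 (two-sided permutation test, p = 0.378). CEC replicates 3, 6 and 8 stood at 23.61, 23.79 and 24.27, above the highest germ-free sample at 22.80. The part of template amount in the results was not tested.

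**Figure D4:**
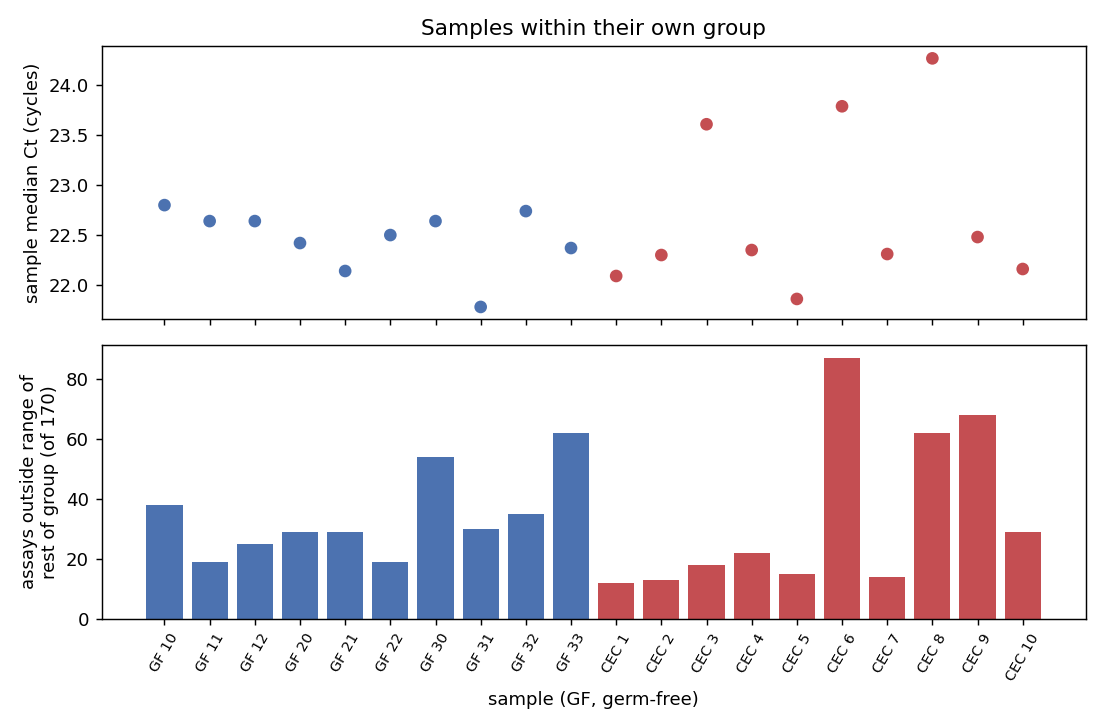
Sample median Ct in cycles (top, where a higher value means later detection) and the number of the 170 fully measured assays in which a sample lies outside the range of the other samples of its group (bottom), for germ-free (GF, blue) and CEC (red) samples. CEC replicates 6, 8 and 9 have the highest bars of their group, at 87, 62 and 68 assays.

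The count of changed assays was higher without some of the CEC samples. It was 28 without CEC replicate 8 (19 higher, 9 lower), 30 without CEC replicate 9 (15 and 15) and 27 without CEC replicate 6 (14 and 13), and each time all 18 assays were among them. CEC replicate 10, which stood less apart, also gave 27 when left out (15 and 12). With replicates 6, 8 and 9 left out together, a choice made after the values had been seen, 46 assays changed, 28 higher and 18 lower, again with all 18 among them. In that fit Mm00655850_m1 was 46.7-fold and Mm00470560_m1 5.20-fold higher, and Mm00445845_m1 was 34.1-fold and Mm00472168_m1 4.10-fold lower (limma, adjusted p = 0.00183, 4.18e-05, 0.00013 and 0.00054). Over the 20 fits that each left out 1 sample, 13 of the 18 assays passed in every fit. The other 5, 3 higher and 2 lower, passed in 9 to 13 of them and had the adjusted p nearest the threshold, from 0.0316 to 0.0482 (limma).

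**Figure D5:**
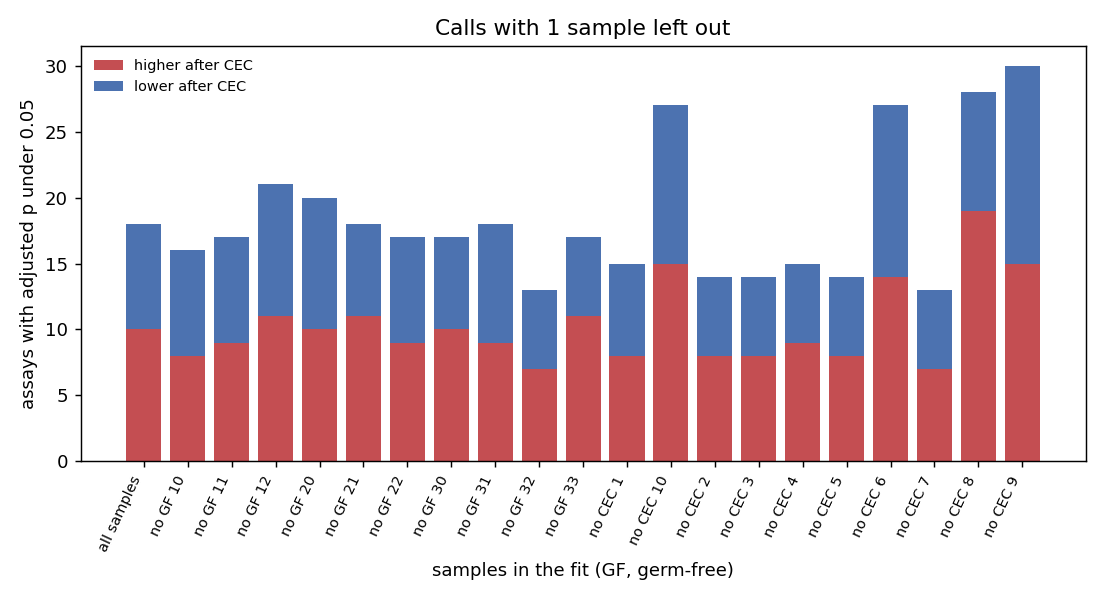
Number of assays past the threshold, higher (red) and lower (blue) after CEC, with all samples and with each germ-free (GF) or CEC sample left out. The total runs from 13 to 30 around the 18 found with all samples, and it is largest without CEC replicate 9.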

How the data were processed

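Per the file headers, the authors deposited raw Ct values, in a table that its header calls a truncated example. More assays may thus have been on the panel. Per the labels' protocols, RNA from the mirVana kit was amplified on OpenArray cards in an NT Cycler. The Ct threshold and any quality filters were not given in the sources used here. The design text says RNA of the mice was pooled, yet 40 samples are given, so p-values measure only the spread between samples, which may be technical.

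Of 8960 values, 405 were 40 and 156 had been filled in: each lay within 2e-06 cycles of the mean of its group's remaining values, in a few cases with 1 more value left out. The normalizer kept filled-in values. Differences were tested with limma 3.58.1 in R 4.3.3 (lmFit, eBayes) in 1 fit over all 4 groups, with Benjamini-Hochberg adjustment over the 213 assays. The fit was first tried on simulated data. These gave each assay the same spread in all groups and held no deviant samples or filled-in values, so they did not cover these features of the real data. The median standard error was 0.27 log2 units, which the 10 samples per group limit. Fisher's exact test was used for detection, and group means of the median Ct and correlations with 100000 permutations (scipy 1.17.1).

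Named are the 2 largest rises and falls past the threshold and the assays with 4 or 5 measured samples in a group. Mm00475162_m1 was added after its values were seen. The planned gene lists and markers could not be matched to assays. The comparison, its rule and the tests were chosen with earlier results of these data known. Alternatives changed the normalizer, undetermined and filled-in wells, the filter, the samples in the fit and sample weights. Plots used matplotlib 3.10.9.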

Additional observations from a re-analysis of the deposited data

Results flagged for a closer look

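Gaps between single samples were examined in 10 sets of 10 samples, the 4 named assays and the sample median Ct in each group. A sample was singled out where its gap to the nearest other sample took more of the range than Dixon's 95% critical value allows, which chance gives in about 1 of 20 sets. This held for 3 samples. Germ-free replicate 31 stood at -14.89 for Mm00655850_m1, with a gap of 0.484 of the range. CEC replicate 6 stood at 4.91 for Mm00470560_m1, with a gap of 0.81 of the range. Germ-free replicate 20 stood at -0.98 for Mm00445845_m1, with a gap of 0.545 of the range.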

How the results depend on the processing

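The 4 named assays kept their direction and passed the threshold in all 32 alternatives (limma), and none of the 18 changed assays turned its direction in any of them. Mm00655850_m1 ranged from 46.7-fold to 232-fold higher. In the 31 alternatives that left out at most 1 sample, 9 of the 18 passed throughout, 4 higher and 5 lower. Another 3, with a filled-in value, could not be tested under the filter on all samples. These 3 also missed the threshold elsewhere, passing in 4 to 9 of the 11 alternatives that left out no CEC or germ-free sample. The count of 18 rose to 28 with filled-in values as deposited (16 higher), 80 with sample quality weights (49 higher, 31 lower) and 46 without CEC replicates 6, 8 and 9 (28 higher, 18 lower). The number of rises was 4 without normalization, and the number of falls was 13 when the 10 most stable assays set the scale. Leaving out 1 sample at a time gave 13 to 30 changed assays, 7 to 19 higher and 6 to 15 lower. The cause of these differences was not tested. The fit of both groups alone called 16 assays, 15 of them among the 18. In that fit the adjusted p (limma) was 0.00439 for Mm00655850_m1, 0.00354 for Mm00470560_m1 and 0.000526 for Mm00472168_m1, all larger than in the fit of 4 groups. For Mm00445845_m1 it was smaller, at 7.97e-06. Counts of assays that differed in detection stayed at 0, and the difference in sample median Ct did not pass with either other normalizer. No paired analysis was possible because CEC and germ-free samples share only 1 replicate number and no number is known to mark a pair. The germ-free samples are numbered 10 to 12, 20 to 22 and 30 to 33, and the CEC samples 1 to 10. Whether germ-free samples with neighbouring numbers are more alike was not tested. Standard errors were larger at low level, with a median of 0.44 log2 units in the lowest 71 assays against 0.23 in the highest 71. Single assays did not all follow this.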

Other observations

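Correlations among the 4 named assays were computed within each group of 10 samples, 12 relations in all, each with a permutation p. None passed after Benjamini-Hochberg adjustment, and 3 had an unadjusted p under 0.05 by Pearson and 1 by Spearman. The closest relation was between Mm00470560_m1 and Mm00472168_m1 after CEC, with a Pearson r of -0.794 (permutation p = 0.00448, adjusted p = 0.0538) and a Spearman rho of -0.697 (permutation p = 0.031, adjusted p = 0.372). Without the 2 samples farthest from the median of Mm00470560_m1, r was -0.298. Leaving out extreme samples also narrows the range, so this value alone does not show how far the relation rested on them. Mm00655850_m1 and Mm00470560_m1, which both rose, had an r of 0.734 after CEC (permutation p = 0.0405, adjusted p = 0.162) and of -0.254 without the 2 farthest samples. In germ-free mucosa Mm00445845_m1 and Mm00472168_m1, which both fell, had an r of 0.755 (permutation p = 0.0205, adjusted p = 0.123), and 0.206 without the 2 farthest samples. All values of a sample share its normalizer.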
